A study of Mus musculus with 8 samples.

Results

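Constitutive signalling by the STING mutant N154S was set against acute signalling by wild-type human STING (hSTING) after 9 h of double-stranded DNA (dsDNA). The comparison takes 2 of the 8 arrays of the series, chosen by their titles: the control array of the N154S cells and the dsDNA array of the hSTING cells, with 1 array on each side. All cells were mouse embryonic fibroblasts (MEFs) lacking STING, labelled as primary cells and grown in DMEM with serum, into which a construct had been put back: N154S, which the submitters call a mutant of the inflammatory disease SAVI, hSTING, the variant R284S, or the empty vector pBabe. Each construct had 1 control array and 1 array of cells given dsDNA in a lipid transfection reagent for 9 h. The labels leave out whether control cells received the reagent, how many clones made up a line and from which species the N154S sequence came.

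STING sits in the membrane of the endoplasmic reticulum and binds the cyclic dinucleotide that cGAS makes when DNA enters the cytosol. It then recruits the kinase TBK1, which phosphorylates the transcription factor IRF3 and so turns on interferon beta; secreted interferons act through their receptor on a large set of antiviral genes, many with an interferon-stimulated response element in the promoter. STING also feeds NF-kB, which controls cytokines, chemokines and its own inhibitors. SAVI mutations make STING signal without added DNA.

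The compared arrays differ both in the construct and in the added DNA, and possibly in the reagent, and these cannot be told apart between them. Values are log2 array signals, and a difference of 1 is 2-fold. With 1 array a side no difference has a replicate check, and none was tested; an array has no read depth, so their number limits the precision. A signal below the median of named genes on its array, 4.47 for N154S control and 4.45 for both hSTING dsDNA and vector control, was treated as dim, and a fold against it is a lower bound in which that median stands for the dim signal. Fibroblast identity held on both arrays: all 9 measured fibroblast markers lay above that median, at 7.65 to 12.73 in N154S control cells and 7.26 to 12.65 in hSTING dsDNA cells. Of 10 macrophage markers 3 reached it on each array, with Cd68 the brightest at 6.10 in N154S control cells and 6.07 in hSTING dsDNA cells, and of 9 lymphocyte markers 1 did. Of 7 epithelial markers 4 reached it in N154S control cells and 2 in hSTING dsDNA cells, with Krt19 at 5.86 in N154S control cells and 4.97 in hSTING dsDNA cells, and of 8 endothelial markers 1 did in N154S control cells and 2 in hSTING dsDNA cells. Mouse Sting1 read 3.89 in N154S control cells and 4.22 in hSTING dsDNA cells; the human sequence was not read separately, so this does not check the labels. The 12 measured housekeeping genes had a median difference of 0.085, and the median over all 22180 genes was 0.01.

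More genes were lower than higher in N154S control cells against hSTING dsDNA cells, and the lower ones included cytokines, chemokines and antiviral genes. Of 22180 genes, 122 (0.55%) were 2-fold or more higher in N154S control cells and 278 (1.25%) were lower. At a 3-fold threshold 14 were higher and 97 lower, and with only signals in the upper quartile of an array counted, 46 were higher. Apcdd1 and Ankrd44 lay just inside the upper threshold at 1.0, and 2300009A05Rik and 4930522L14Rik just outside at 0.99; Plag1 and Rnf135 lay just inside the lower one at -1.0, and Mlkl and S1pr1 just outside at -0.99. The antiviral, chemokine and NF-kB gene lists had 22, 8 and 19 members lower in N154S control cells and 0 higher. Every list was chosen with earlier results of these data known, so none is independent evidence of its direction.

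To sort the genes, both arrays were set against the vector control array, which is shared by both, so that a low or high value there moves both sides together. In N154S control cells 223 genes (1.01%) stood 2-fold or more above vector cells and 90 (0.406%) below; hSTING dsDNA cells had 511 (2.3%) above and 169 (0.762%) below. The word raised is used here for a signal 2-fold or more above vector control, without a test. Raised in both and within 1.5-fold of each other were 86 genes, called reached alike. Another 99 were raised in both but more than 1.5-fold further in hSTING dsDNA cells, and 1, the class I gene H2-T10, was further in N154S control cells, at 7.06, against 6.36 in hSTING dsDNA cells and 4.76 in vector control cells. Acute-only genes, raised in hSTING dsDNA cells and less than 1.5-fold above vector in N154S control cells with 2-fold or more between the arrays, numbered 124. The mirror image, raised in N154S control cells only, held 15 genes, and 223 raised genes lay between these classes. As shares of all genes, 0.388% were reached alike, 0.446% further in hSTING dsDNA cells and 0.559% acute only. Raised in N154S control cells only were 0.0676%, and 1.01% lay between. Below vector cells, 17 genes were lowered alike, 48 in hSTING dsDNA cells only and 12 in N154S control cells only; 3 more were lowered further in each, and 152 lay between.

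**Figure D1:**
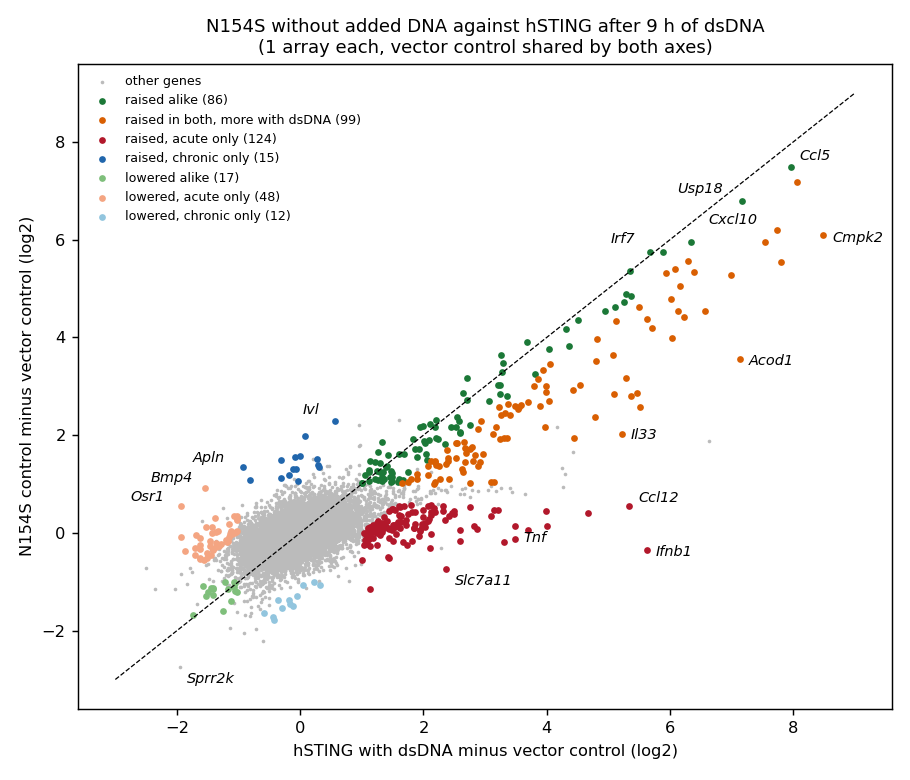
Log2 difference of N154S control cells (vertical) and of hSTING dsDNA cells (horizontal) from vector control cells, 1 point a gene, coloured by class (chronic only stands for N154S control cells only, acute only for hSTING dsDNA cells only), with the dashed line marking equal values. Both axes subtract the same vector array. The 124 acute-only genes lie along the horizontal axis, with Ifnb1 farthest out, and the 15 genes raised in N154S control cells only lie near the vertical one.

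Promoters of 1 gene of each raised class are shown so that the motifs named in what follows can be seen in place, chosen after the matches were known. Not every leading gene holds them: the windows of Oasl2 and Irf7, reached alike as well, held none of the motifs searched. Each is the RefSeq stretch from 250 bases before to 50 after the start in GRCm38.p6, read in the gene's direction, with matches to the response element core, the IRF element and the NF-kB motif below in capitals. The motifs searched on both strands were the interferon-stimulated response element core GAAANNGAAA, the shorter IRF element AANNGAAA, which every core also holds, the AP-1 motif TGANTCA, the cyclic AMP element TGACGTCA, the amino acid response motif TGATGNAA, an NF-kB motif and the CArG box of SRF. Isg15, reached alike (chr4:156200769-156201068, minus strand), has 3 overlapping cores whose first bases lie 78, 72 and 66 before the start, and an IRF element on the opposite strand at 128.
Isg15: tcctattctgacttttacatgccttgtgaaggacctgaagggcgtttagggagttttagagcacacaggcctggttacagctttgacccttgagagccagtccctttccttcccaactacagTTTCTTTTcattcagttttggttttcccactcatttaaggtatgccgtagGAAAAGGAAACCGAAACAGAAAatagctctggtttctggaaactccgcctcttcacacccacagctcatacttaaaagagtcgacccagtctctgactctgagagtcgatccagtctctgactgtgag
Acod1, raised further in hSTING dsDNA cells (chr14:103046762-103047061, plus strand), has an IRF element 63 bases before the start. This short motif is in 22.3% of all measured promoters.
Acod1: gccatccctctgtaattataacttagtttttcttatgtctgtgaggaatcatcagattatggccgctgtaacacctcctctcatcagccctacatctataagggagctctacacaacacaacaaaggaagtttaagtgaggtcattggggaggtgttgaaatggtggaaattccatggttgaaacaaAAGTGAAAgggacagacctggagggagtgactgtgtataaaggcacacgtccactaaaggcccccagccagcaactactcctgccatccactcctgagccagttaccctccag
Ifnb1, acute only (chr4:88522745-88523044, minus strand), has IRF elements 159, 139 and 126 bases before the start and an NF-kB motif at 116. A match to TGATGNAA just past the start, on the opposite strand, is left in lower case.
Ifnb1: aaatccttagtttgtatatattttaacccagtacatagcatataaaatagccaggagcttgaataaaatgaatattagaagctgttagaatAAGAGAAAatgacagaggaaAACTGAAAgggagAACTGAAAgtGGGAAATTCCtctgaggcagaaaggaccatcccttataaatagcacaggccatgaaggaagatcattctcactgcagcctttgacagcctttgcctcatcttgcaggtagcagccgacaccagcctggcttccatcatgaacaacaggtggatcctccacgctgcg
Apln, raised in N154S control cells only (chrX:48034804-48035103, minus strand), holds none of these letters in this window.
Apln: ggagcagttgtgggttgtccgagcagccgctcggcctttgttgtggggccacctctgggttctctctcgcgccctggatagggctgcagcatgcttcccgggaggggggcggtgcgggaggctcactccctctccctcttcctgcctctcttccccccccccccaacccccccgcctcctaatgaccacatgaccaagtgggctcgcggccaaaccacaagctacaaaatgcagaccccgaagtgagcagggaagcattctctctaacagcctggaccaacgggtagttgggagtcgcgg
A match is a description of letters and not of binding, and the absence of one says only that the letters are not in the window.

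The 86 genes reached alike included 21 of 62 measured antiviral interferon-stimulated genes, 8 of 19 of class I antigen presentation and 5 of 24 pathway components. Of all genes 0.388% were reached alike. Ccl5, a chemokine that attracts T cells, had a signal of 12.22 in N154S control cells, 12.70 in hSTING dsDNA cells, 8.60 in hSTING control cells, 4.89 in vector dsDNA cells and 4.74 in vector control cells. It stood 178.5-fold above vector in N154S control cells and 249.0-fold in hSTING dsDNA cells, and 1.40-fold apart between them. Usp18, which removes ISG15 from proteins and restrains the interferon receptor, had 11.64 in N154S control cells, 12.01 in hSTING dsDNA cells, 10.88 in hSTING control cells, 7.98 in vector dsDNA cells and 4.84 in vector control cells. Both genes were thus at a similar height in the compared cells, but of the pair Usp18 was nearer to it in hSTING cells without DNA. Irf7, the factor that extends the interferon response, read 11.02 in N154S control cells, 10.95 in hSTING dsDNA cells, 9.72 in hSTING control cells and 5.27 in vector control cells, a difference of 0.07 between the compared arrays. Zbp1, a sensor of left-handed nucleic acids that can start cell death, read 9.80 in N154S control cells, 9.79 in hSTING dsDNA cells, 8.46 in hSTING control cells and 4.44 in vector control cells. Isg15, the ubiquitin-like modifier, had 11.05 in N154S control cells, 11.46 in hSTING dsDNA cells, 10.74 in hSTING control cells and 6.17 in vector control cells.

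Oasl2, Rtp4, Sp100, Trim30d and Gm20559 completed the 10 leading genes of the group, with differences between the compared arrays of -0.53 to -0.14. Many of these genes were already high in hSTING cells without added DNA: 44 of the 86 genes were also raised in hSTING control cells over vector, and the group's median signal was 8.10 in N154S control cells, 8.22 in hSTING dsDNA cells, 6.955 in hSTING control cells, 6.015 in vector dsDNA cells and 5.51 in vector control cells. Against hSTING control cells, 47 of the 86 were 2-fold or more higher in hSTING dsDNA cells. Both counts reuse an array that defined the class, vector control or hSTING dsDNA, which favours a high count. The share over all genes was not counted for either, so neither can be set against a background. The count of 86 depends on the baseline and the margin: it was 47 with hSTING control cells as the baseline of the acute array, and 48 with a margin of 1.2-fold.

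Class I antigen presentation genes, which display peptides to T cells, were raised over vector on both arrays for 12 of 19 measured members. Of these 19 genes, 8 were reached alike, 4 were further in hSTING dsDNA cells and 2 lay between (0.388%, 0.446% and 1.01% of all genes). In N154S control cells 0 were higher and 4 lower (beside 0.55% and 1.25% of all genes), with a median difference of -0.29. H2-K1, a classical class I heavy chain, had 10.43 in N154S control cells, 9.96 in hSTING dsDNA cells, 8.87 in hSTING control cells and 7.26 in vector control cells. H2-Q4, a nonclassical relative, read 8.23 in N154S control cells, 8.38 in hSTING dsDNA cells and 4.06 in vector control cells, at least 13.7-fold and 15.2-fold above vector. Psmb8, an immunoproteasome subunit, and Tapbp, which loads peptide, differed by -0.18 and -0.17. Probes of near-identical class I genes can cross-react, so single H2 symbols are uncertain. The transporter Tap1 was 2.04-fold lower in N154S control cells, at 8.60 against 9.63 in hSTING dsDNA cells, and Psmb10, another immunoproteasome subunit, 2.48-fold lower at 8.85 against 10.16 in hSTING dsDNA cells. Nlrc5, the transcriptional activator of class I genes, was 2.35-fold lower at 5.73 against 6.96 in hSTING dsDNA cells, and Tapbpl, a peptide editor, 2.19-fold lower at 6.27 against 7.40 in hSTING dsDNA cells. Of 7 class II genes, H2-Ab1 was 2.31-fold higher in N154S control cells, at 6.83 against 5.62 in hSTING dsDNA cells, with 7.53 in R284S control cells.

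Antiviral interferon-stimulated genes were high on both compared arrays and higher in hSTING dsDNA cells for many members. Of 62 measured, 21 were reached alike and 31 were raised in both but further in hSTING dsDNA cells (0.388% and 0.446% of all genes). Between the classes lay 6, and 0 were acute only (1.01% and 0.559% of all genes). In N154S control cells 22 were 2-fold or more lower and 0 higher (1.25% and 0.55% of all genes), with a median difference of -0.73. The list was chosen with earlier results of these data known and is no independent evidence of its direction. Cmpk2, a mitochondrial nucleotide kinase, had 9.66 in N154S control cells, 12.06 in hSTING dsDNA cells, 7.07 in hSTING control cells, 5.90 in vector dsDNA cells and 3.57 in vector control cells, a 5.28-fold lower signal in N154S control cells than in hSTING dsDNA cells. Ifi205, a DNA-binding protein of the Ifi200 family whose probes can cross-react, read 9.71 in N154S control cells, 11.97 in hSTING dsDNA cells, 8.39 in hSTING control cells, 6.02 in vector dsDNA cells and 4.17 in vector control cells. Rsad2, the antiviral enzyme viperin, was 3.53-fold lower at 9.69 against 11.51 in hSTING dsDNA cells, and the interferon-inducible GTPase Iigp1 3.01-fold lower at 9.09 against 10.68 in hSTING dsDNA cells. Ifih1, the RNA sensor MDA5 from the pathway list, was also 3.01-fold lower, at 9.80 against 11.39 in hSTING dsDNA cells. Each of these 5 was itself raised over vector in N154S control cells.

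A few antiviral genes were dim or almost dim in N154S control cells. Ifit1bl1, of the Ifit family of RNA-binding proteins, had 3.19 in N154S control cells, 7.93 in hSTING dsDNA cells and 3.84 in N154S dsDNA cells, at least 11-fold lower in N154S control cells than in hSTING dsDNA cells. Mx1, a GTPase that blocks viruses, read 4.45 in N154S control cells, 7.22 in hSTING dsDNA cells and 2.79 in vector control cells. Gbp5, an interferon-inducible GTPase, read 4.54 in N154S control cells, 7.87 in hSTING dsDNA cells, 7.15 in N154S dsDNA cells and 3.61 in vector control cells. All 3 lay between the classes, because as read they exceeded their dim vector signals by more than 1.5-fold. With the median standing for the dim vector signal, Gbp5 was at least 1.06-fold above vector in N154S control cells. Epsti1, counted as raised in both, was at least 1.04-fold above. The count of 0 acute-only antiviral genes thus depends on dim vector readings. Ifi27 was the member of the list below vector on both arrays, at 6.23 in N154S control cells, 6.82 in hSTING dsDNA cells and 7.84 in vector control cells.

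**Figure D2:**
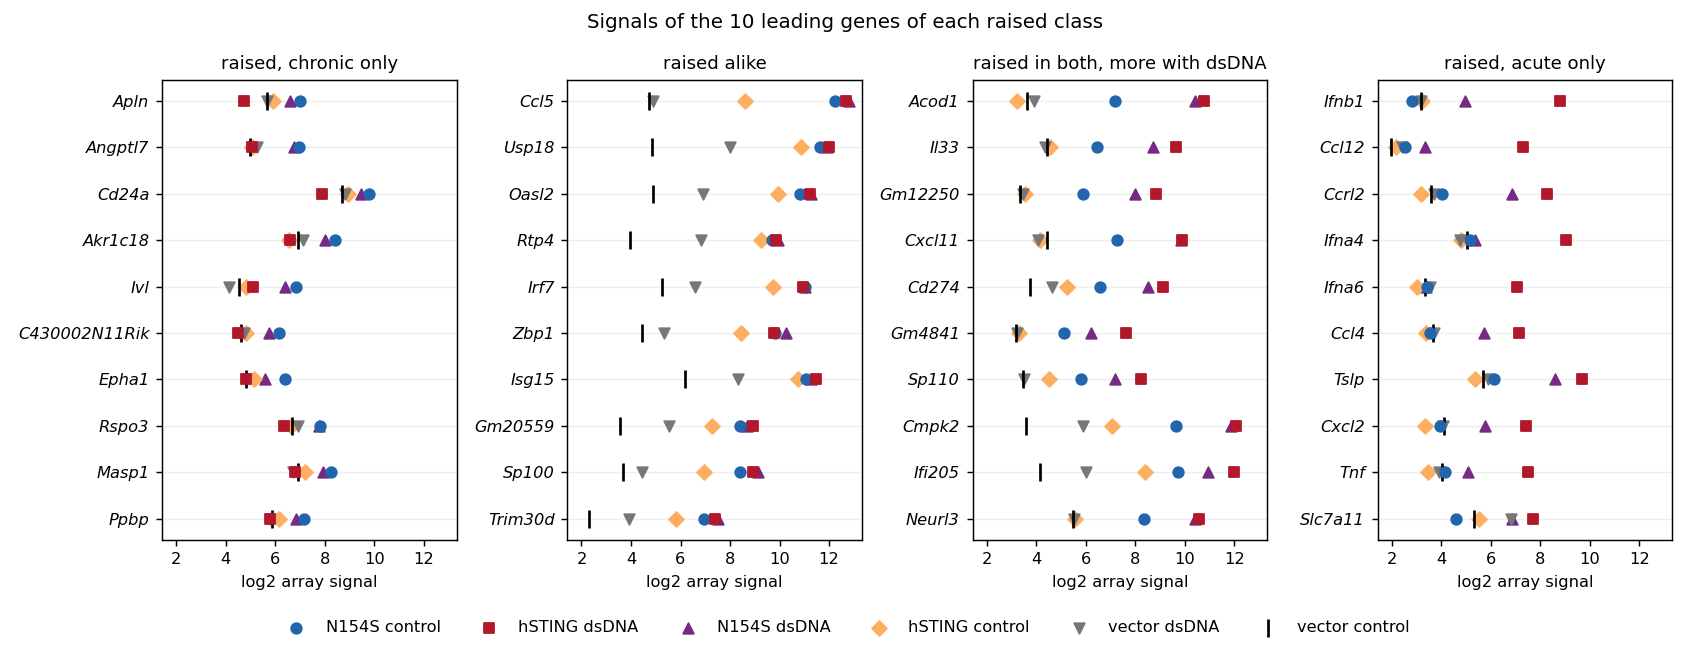
Log2 signals of the 10 leading genes of each raised class on 6 arrays: N154S control (circles), hSTING dsDNA (squares), N154S dsDNA (triangles), hSTING control (diamonds), vector dsDNA (inverted triangles) and vector control (bars). In the alike panel circles and squares lie close together, with hSTING control at varying distance, as for Usp18 at 11.64, 12.01 and 10.88 and Ccl5 at 12.22, 12.70 and 8.60; in the acute-only panel the squares stand alone for Ifnb1 at 8.80.

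Genes of the pathway itself included both kinds. Of 24 measured components, 5 were reached alike, 5 were further in hSTING dsDNA cells and 3 lay between (0.388%, 0.446% and 1.01% of all genes). In N154S control cells 5 were 2-fold or more lower, beside 1.25% of all genes. Stat2, a transcription factor of the interferon response, had 9.51 in N154S control cells, 9.77 in hSTING dsDNA cells and 5.74 in vector control cells, and Irf9, its partner, read 8.55 in N154S control cells, 8.34 in hSTING dsDNA cells and 6.39 in vector control cells. Irf1, a factor induced both by interferon and by NF-kB, was 3.48-fold lower in N154S control cells, at 5.95 against 7.75 in hSTING dsDNA cells, with 5.15 in vector control cells. Samhd1, which breaks down nucleotides and restricts retroviruses, was 3.36-fold lower at 8.49 against 10.24 in hSTING dsDNA cells. Nmi, an interferon-inducible adaptor protein, was 2.51-fold lower at 7.08 against 8.41 in hSTING dsDNA cells. The upstream genes differed by less than 1.5-fold: Cgas by -0.32, Tbk1 by -0.41, Irf3 by 0.11, Mavs by 0.31 and Ifnar1 by -0.24.

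Genes raised further in hSTING dsDNA cells included several mediators beyond the antiviral list. Acod1, which makes the antimicrobial metabolite itaconate, had 7.18 in N154S control cells, 10.76 in hSTING dsDNA cells, 10.42 in N154S dsDNA cells, 3.24 in hSTING control cells, 3.91 in vector dsDNA cells and 3.63 in vector control cells, 11.96-fold lower in N154S control cells than in hSTING dsDNA cells. Il33, an alarmin of the interleukin 1 family, read 6.45 in N154S control cells, 9.64 in hSTING dsDNA cells and 4.42 in vector control cells and was 9.13-fold lower. Cd274, the checkpoint ligand PD-L1, read 6.56 in N154S control cells, 9.12 in hSTING dsDNA cells and 3.75 in vector control cells and was 5.90-fold lower. For all 3 genes N154S control cells stood between vector and acute cells, which the definition of their class requires. Gm12250, Gm4841 and Neurl3, also among the 10 leading genes, were 7.62-fold, 5.66-fold and 4.76-fold lower. Over the 99 genes the median signal was 7.39 in N154S control cells, 8.63 in hSTING dsDNA cells, 6.16 in hSTING control cells, 5.40 in vector dsDNA cells and 4.65 in vector control cells. In hSTING dsDNA cells 98 of the 99 were 2-fold or more above hSTING control. The class was chosen by a high hSTING dsDNA array, so this count largely follows from the choice. The share over all genes was not counted for it.

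Of 16 measured interferon genes, 4 were acute only, beside 0.559% of all genes, and the other 12 were in no class. Ifnb1, interferon beta, had a signal of 2.82 in N154S control cells, 8.80 in hSTING dsDNA cells, 4.95 in N154S dsDNA cells, 4.06 in R284S control cells, 3.21 in hSTING control cells, and 3.18 in both vector dsDNA and vector control cells. It was at least 20.1-fold lower in N154S control cells than in hSTING dsDNA cells. Ifna4 had 5.16 in N154S control cells, 9.03 in hSTING dsDNA cells, 5.37 in N154S dsDNA cells and 5.02 in vector control cells. Ifna6 had 3.40 in N154S control cells, 7.04 in hSTING dsDNA cells and 3.35 in vector control cells, and Ifna1 had 5.85 in N154S control cells, 8.26 in hSTING dsDNA cells and 6.16 in vector control cells. Interferon alpha genes are near-identical copies, so their single symbols are uncertain. All 4 were highest on the hSTING dsDNA array among the 8 arrays, which their choice by that array favours. Of the others, 10 were dim on both compared arrays, and the lambda interferons Ifnl2 and Ifnl3 were not, at 6.19 and 5.35 in N154S control cells, 6.24 and 4.88 in hSTING dsDNA cells, and 6.16 and 5.08 in vector control cells.

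Inflammatory genes driven by NF-kB had a median difference from vector control of 0.14 in N154S control cells and 1.14 in hSTING dsDNA cells. Of 43 measured inflammatory genes 0 were reached alike and 13 were acute only (0.388% and 0.559% of all genes). At 0.388% a list of 43 can hold 0 without differing from all genes. Raised in both but further in hSTING dsDNA cells were 5, and 6 lay between (0.446% and 1.01% of all genes). In N154S control cells 19 were 2-fold or more lower, beside 1.25% of all genes, with a median difference of -0.95. Tnf, the central inflammatory cytokine, had 4.16 in N154S control cells, 7.50 in hSTING dsDNA cells, 5.08 in N154S dsDNA cells, 3.44 in hSTING control cells, 3.90 in vector dsDNA cells and 4.02 in vector control cells, at least 8.17-fold lower in N154S control than in hSTING dsDNA cells. Cxcl2, a neutrophil chemokine, read 3.93 in N154S control cells, 7.42 in hSTING dsDNA cells and 4.12 in vector control cells, at least 7.73-fold lower. Csf2, the growth factor GM-CSF, was 6.73-fold lower at 5.0 against 7.75 in hSTING dsDNA cells on its brightest probe set and differed by -1.56 on the mean of its probe sets. Tnf and Cxcl2 were dim in N154S control cells, as in vector cells. The list also holds subunits and regulators of NF-kB, of which Nfkbia, Nfkb2 and Nfkbie were acute only, while Rela, Relb, Nfkbib, Nfkbiz and Bcl3 were in no class, with differences between the compared arrays of -0.93 to 0.20. Nfkbia, the inhibitor of NF-kB, read 9.19 in N154S control cells, 10.51 in hSTING dsDNA cells and 9.18 in vector control cells. Nfkb2, a subunit precursor, read 6.86 in N154S control cells, 8.26 in hSTING dsDNA cells and 7.12 in vector control cells. Nfkbie, another inhibitor, read 5.23 in N154S control cells, 6.82 in hSTING dsDNA cells and 5.26 in vector control cells.

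Vcam1 and Icam1, adhesion molecules, were 2.19-fold and 2.14-fold lower in N154S control cells, and Lif, a cytokine of the interleukin 6 family, 3.78-fold. Raised in N154S control cells too, but further in hSTING dsDNA cells, were 5 members of the list: Acod1 and Il33, described before, Nos2, the inducible nitric oxide synthase, at 6.64 in N154S control cells, 7.66 in hSTING dsDNA cells and 4.48 in vector control cells, Il1a, at 6.52 in N154S control cells, 7.29 in hSTING dsDNA cells and 4.40 in vector control cells, and Tnfaip3, the NF-kB inhibitor A20, at 6.99 in N154S control cells, 8.46 in hSTING dsDNA cells and 5.54 in vector control cells. Il6 lay between the classes with 8.36 in N154S control cells, 10.50 in hSTING dsDNA cells and 7.41 in vector control cells, a 4.41-fold lower signal in N154S control than in hSTING dsDNA cells.

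Chemokines were lower in N154S control cells in 8 of 12 measured genes, beside 1.25% of all genes. Of the 12, 4 were acute only and 4 raised further in hSTING dsDNA cells (0.559% and 0.446% of all genes). Another 3 lay between, and Ccl5 was reached alike. Ccl12, which attracts monocytes, had 2.53 in N154S control cells, 7.31 in hSTING dsDNA cells, 3.35 in N154S dsDNA cells and 1.97 in vector control cells, at least 7.16-fold lower. Ccl4 read 3.55 in N154S control cells, 7.15 in hSTING dsDNA cells, 5.72 in N154S dsDNA cells and 3.67 in vector control cells. Cxcl10, a ligand of CXCR3, had 11.33 in N154S control cells, 12.86 in hSTING dsDNA cells, 8.98 in hSTING control cells, 8.21 in vector dsDNA cells and 5.13 in vector control cells, 2.89-fold lower in N154S control cells. Its relatives Cxcl11 and Cxcl9 were 6.11-fold and 4.11-fold lower. Ccrl2, a chemerin-binding receptor outside the lists, was at least 13.9-fold lower at 4.01 against 8.27 in hSTING dsDNA cells, and Tslp, a cytokine that acts on dendritic cells, 11.6-fold lower at 6.13 against 9.67 in hSTING dsDNA cells.

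Atf3 and Slc7a11 were 2 further acute-only genes. Atf3 came from the immediate early list, and Slc7a11 from both the amino acid stress list and the NRF2 antioxidant list. Each was the only acute-only member of its lists. Atf3, a stress-induced transcription factor, had 6.34 in N154S control cells, 9.10 in hSTING dsDNA cells, 7.63 in N154S dsDNA cells and 6.0 in vector control cells. Slc7a11, the cystine transporter, had 4.57 in N154S control cells, 7.68 in hSTING dsDNA cells, 6.84 in N154S dsDNA cells, 7.39 in R284S dsDNA cells, 5.53 in hSTING control cells, 6.81 in vector dsDNA cells and 5.31 in vector control cells. Slc7a11 was thus high on all 4 dsDNA arrays, vector included, and the difference of -3.11 became -1.70 on the mean of its probe sets. The antioxidant list had a median signal of 8.95 in vector dsDNA cells, 8.48 in hSTING dsDNA cells and 7.865 in vector control cells. Of its 14 measured genes Slc7a11 was the 1 lower in N154S control cells than in hSTING dsDNA cells. Of the 124 acute-only genes Slc7a11 was the 1 also raised in vector cells with dsDNA, where 33 of 22180 genes were higher and 8 lower. The other raised classes held more of these genes, which rose with dsDNA in cells without STING. They were 9 of the 86 genes reached alike and 15 of the 99 raised further in hSTING dsDNA cells. All these counts share the vector control array with the classes. In hSTING control cells 0 of the 124 were raised over vector. In hSTING dsDNA cells 120 were 2-fold or more above hSTING control cells. The class was chosen by a high hSTING dsDNA array, so this last count largely follows from the choice. For the counts of 0 and 120 the share over all genes was not counted. The amino acid stress list had 6 of 24 genes lower in N154S control cells and 0 higher (1.25% and 0.55% of all genes), with a median of -0.585. The 6 were the transporters Slc7a11, Slc7a3, Slc7a5 and Slc7a1, and the enzymes Cth and Chac1. The list's median difference from vector control was -0.525 in N154S control cells and 0.165 in hSTING dsDNA cells. Slc7a3 was in the class lowered in N154S control cells only, and Cth, Chac1 and Slc7a1 differed from vector by -0.88, -0.65 and -0.58 in N154S control cells and by 0.61, 0.59 and 0.52 in hSTING dsDNA cells. For Slc7a5, at 8.98 in N154S control cells, 10.27 in hSTING dsDNA cells and 9.96 in vector control cells, the vector level was close to the acute one.

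**Figure D3:**
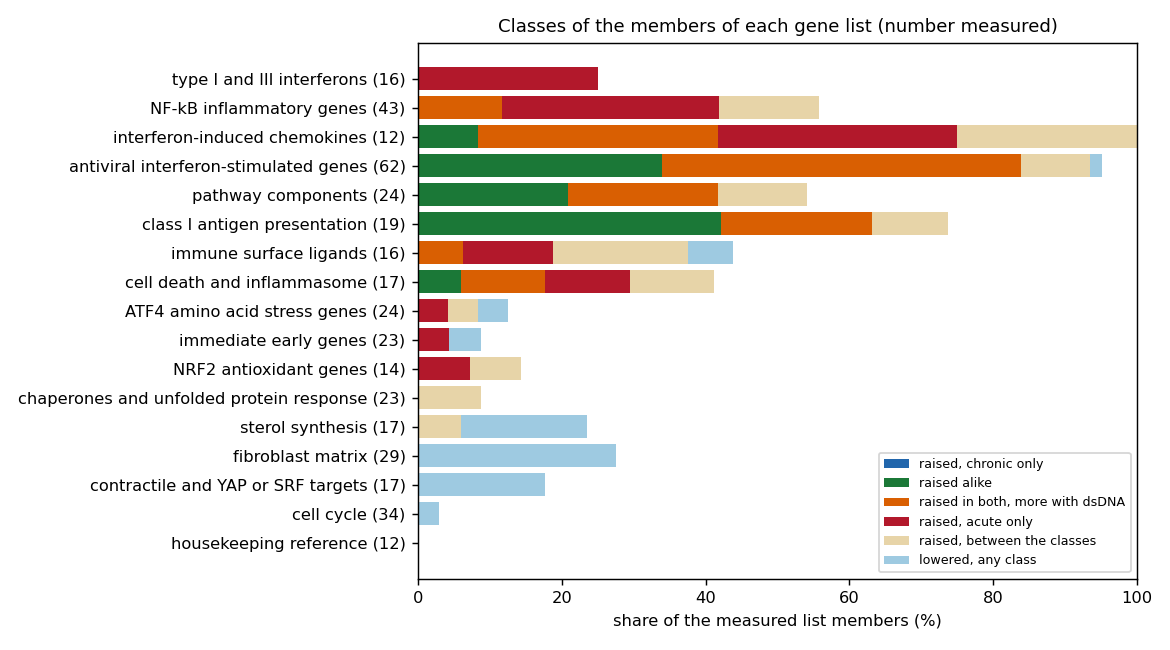
Share of the measured members of 17 gene lists, in percent, that fell in each class, with the number measured after each name. Of 62 antiviral genes 21 are reached alike and 31 raised further in hSTING dsDNA cells, whereas NF-kB genes hold 0 reached alike and 13 acute only of 43. Over all genes 0.388% are reached alike, 0.446% raised further in hSTING dsDNA cells and 0.559% acute only. The unfilled part of a bar is members in no class.

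Genes raised in N154S control cells only numbered 15. Apln, the ligand of the apelin receptor, had 7.0 in N154S control cells, 4.73 in hSTING dsDNA cells, 7.15 in R284S control cells, 5.92 in hSTING control cells and 5.66 in both vector arrays, 4.82-fold higher in N154S control cells than in hSTING dsDNA cells. Angptl7, an angiopoietin-like secreted protein, read 6.96 in N154S control cells, 5.05 in hSTING dsDNA cells, 6.76 in R284S control cells and 4.98 in vector control cells. Akr1c18, which inactivates progesterone, read 8.42 in N154S control cells, 6.61 in hSTING dsDNA cells, 8.73 in R284S control cells and 6.92 in vector control cells. On all 3 the R284S control signal lay close to that of N154S control. Cd24a, a small surface glycoprotein, was 3.73-fold higher at 9.79 against 7.89 in hSTING dsDNA cells, Ivl, the cornified envelope protein involucrin, 3.29-fold at 6.83 against 5.11 in hSTING dsDNA cells, and Rspo3, which amplifies Wnt signals, 2.73-fold at 7.80 against 6.35 in hSTING dsDNA cells. Vector control cells read 8.70 for Cd24a, 4.54 for Ivl and 6.67 for Rspo3. Cd24a was thus 2.13-fold above vector in N154S control cells and 1.75-fold below it in hSTING dsDNA cells. For Rspo3 these were 2.19-fold above and 1.25-fold below. Epha1, Masp1, Ppbp and C430002N11Rik were 2.59-fold to 3.14-fold higher than in hSTING dsDNA cells, and Car2, Sema3d, Prelid2, Prl8a9 and Rasgrp3, named after their values were seen, complete the 15. With signals in the upper quartile alone counted, the class held 9 genes.

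Genes lowered in hSTING dsDNA cells only were led by Osr1 and Bmp4. Osr1, a transcription factor of embryonic mesenchyme, had 8.59 in N154S control cells, 6.11 in hSTING dsDNA cells, 8.0 in hSTING control cells, 8.06 in vector dsDNA cells and 8.05 in vector control cells. Bmp4, a growth factor of the BMP family, had 8.59 in N154S control cells, 6.12 in hSTING dsDNA cells, 7.51 in hSTING control cells and 7.67 in vector control cells. Osr1 was 5.58-fold and Bmp4 5.54-fold higher in N154S control cells than in hSTING dsDNA cells. Edn1, the vasoactive peptide endothelin 1, read 6.79 in N154S control cells, 4.94 in hSTING dsDNA cells and 6.87 in vector control cells, and the aggrecan-cleaving protease Adamts5 read 6.78 in N154S control cells, 5.13 in hSTING dsDNA cells and 6.66 in vector control cells. The 48 genes of this class had median signals of 6.545 in N154S control cells, 5.26 in hSTING dsDNA cells and 6.705 in vector control cells; 26 were counted with upper-quartile signals alone.

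Lowered in N154S control cells only were 12 genes (0.0541% of all), with 0 of the 29 measured members of the fibroblast matrix list among them. At that share a list of 29 can hold 0 without differing from all genes. Egfl6, a secreted matrix protein with EGF repeats, had 7.33 in N154S control cells, 8.68 in hSTING dsDNA cells, 4.89 in R284S control cells and 9.11 in vector control cells. Tnn, a tenascin, read 6.34 in N154S control cells, 7.72 in hSTING dsDNA cells, 5.64 in R284S control cells and 7.84 in vector control cells. Abi3bp, another matrix protein, read 5.08 in N154S control cells, 6.37 in hSTING dsDNA cells, 3.66 in R284S control cells and 6.53 in vector control cells. Each was lower still in R284S control cells. Slc7a3, Mcpt1 and Ccl17 were the other leading members, at 4.79, 3.31 and 3.80 in N154S control cells against 6.17, 4.59 and 5.04 in hSTING dsDNA cells. Mcpt1 and Ccl17 were dim in N154S control cells, so their folds are bounds short of 2-fold. They were at least 1.09-fold and 1.48-fold lower than in hSTING dsDNA cells, and at least 1.47-fold and 1.54-fold below vector. Lowered alike were 17 genes, but 5 with hSTING control as the baseline of the acute array and 10 with a margin of 1.2-fold. Among the 17 were the tubulin Tubb3, at 7.24 in N154S control cells, 7.19 in hSTING dsDNA cells and 8.93 in vector control cells, and the interleukin 1 receptor Il1r1, at 7.48 in N154S control cells, 7.34 in hSTING dsDNA cells, 8.12 in hSTING control cells and 8.75 in vector control cells. For Il1r1 hSTING dsDNA minus hSTING control was -0.78, short of 2-fold. Of the 29 measured fibroblast matrix genes 0 passed 2-fold between the compared arrays, where 0.55% of all genes were higher and 1.25% lower. A list of 29 can hold 0 at those shares, so the count does not set it apart from all genes. The list's median difference from vector control was -0.49 in N154S control cells and -0.29 in hSTING dsDNA cells. On at least 1 of these arrays 8 were 2-fold or more below vector. Of all genes 0.406% were so in N154S control cells and 0.762% in hSTING dsDNA cells. Among the 8 was the collagen chain Col6a3, with 6.85 in N154S control cells, 7.64 in hSTING dsDNA cells and 8.54 in vector control cells.

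Arrays that took no part in defining the classes were then read. Over all genes, R284S control exceeded hSTING control 2-fold or more for 156 (0.703%) and was as far below it for 107 (0.482%). Of the 15 genes raised in N154S control cells only, 15 were above 0 in that difference, beside 51.26% of all genes, 7 of them by 2-fold or more, and their median was 0.85 beside 0.01 over all genes. Of the 12 lowered in N154S control cells only, 12 were below 0, beside 46.85% of all genes, 7 of them by 2-fold or more, and their median was -1.435. Acute-only genes were above 0 in 89 of 124 cases, 12 of them by 2-fold or more, with a median of 0.23. N154S dsDNA minus vector dsDNA had 349 genes (1.57%) higher and 196 (0.884%) lower. The acute-only genes were above 0 there in 118 of 124 cases, beside 49.54% of all genes, 41 of them by 2-fold or more, and their median was 0.705 beside 0 over all genes. Their median signal was 6.15 in N154S dsDNA cells, 5.47 in N154S control cells and 7.24 in hSTING dsDNA cells. The lowered acute-only genes were below 0 in 45 of 48 cases, beside 48.95% of all genes, with 9 of them 2-fold or more lower. These counts are descriptions from 1 array a group.

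**Figure D4:**
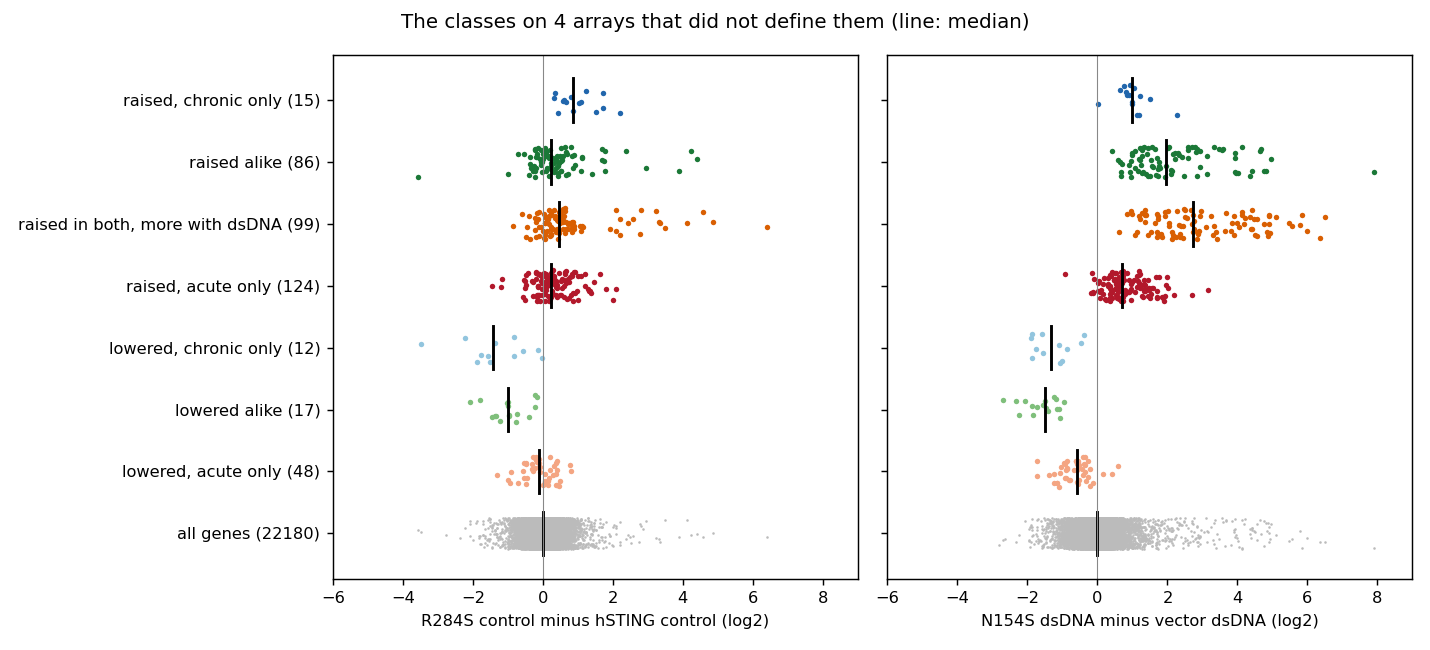
Log2 differences on 4 arrays that did not define the classes, R284S control minus hSTING control (left) and N154S dsDNA minus vector dsDNA (right), 1 point a gene with a line at each class median. On the left all 15 genes raised in N154S control cells only (median 0.85) and 89 of the 124 acute-only genes lie above 0, beside 51.26% of all genes. On the right 118 of the 124 acute-only genes do (median 0.705), beside 49.54% of all genes.

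Promoter letters differed between the classes as follows, with the share over 16990 measured genes with a RefSeq promoter as background. The response element core was in 19 of 70 promoters of genes reached alike (27.1%), 23 of 71 of those raised further in hSTING dsDNA cells (32.4%), 11 of 100 acute-only promoters (11%) and 0 of 10 raised in N154S control cells only, beside 3.35% of all. The shorter IRF element was in 41 of 70 (58.6%), 45 of 71 (63.4%), 29 of 100 (29%) and 1 of 10 (10%) in that order, beside 22.3% of all. The NF-kB motif was in 8 of 70 (11.4%), 12 of 71 (16.9%), 16 of 100 (16%) and 0 of 10, beside 8.98% of all. The AP-1 motif was in 17 of 70 (24.3%), 14 of 71 (19.7%), 10 of 100 (10.0%) and 3 of 10 (30.0%), beside 7.39%. Amino acid response motifs were in 9 of 100 acute-only promoters (9.0%), beside 3.47%. No test was made, and the smallest class has 10 promoters.

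**Figure D5:**
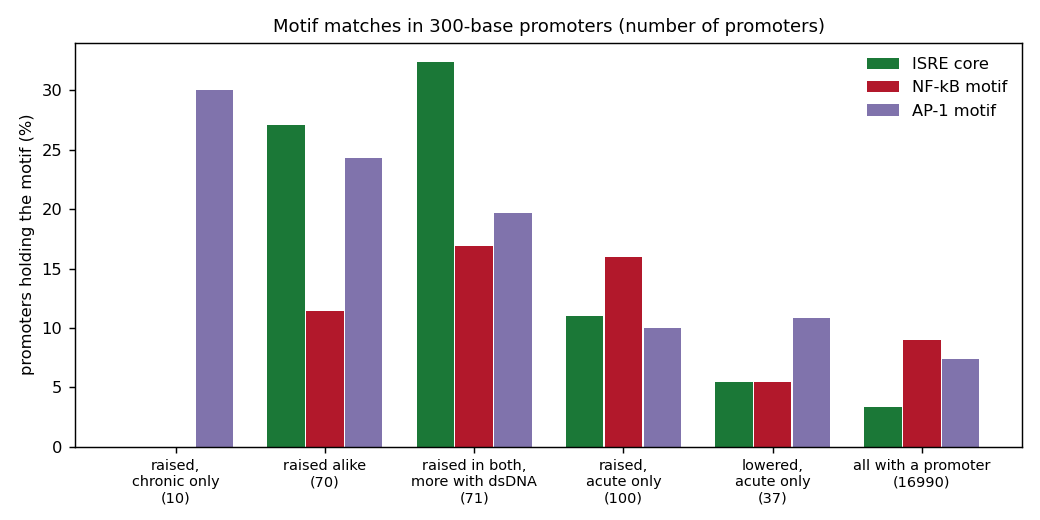
Share of RefSeq promoters, in percent, holding the interferon response element core (ISRE core, green), the NF-kB motif (red) or the AP-1 motif (purple) in each class, with the number of promoters in brackets. The core is most frequent in the classes raised in both cells (27.1% and 32.4%) and not found in the 10 promoters of the N154S-only class, while the NF-kB motif is in 16.9% of promoters raised further in hSTING dsDNA cells and 16% of acute-only ones.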

How the data were processed

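RNA of 8 cultures was labelled with the GeneChip WT PLUS kit, per the labels' protocols, and the Affymetrix arrays were processed with Affymetrix Expression Console 1.3.1.187, per the submitters' processing notes. Not given in the sources used here: algorithm, background correction and genome build. As deposited, the authors' values are log2 signals of 41345 probe sets, and the sorted values of the compared arrays differed by at most 0.13. The platform annotation gave 23521 probe sets 1 symbol, 1814 several and 16010 none; 22180 genes were kept, by the brightest probe set for the 1082 with several. Some list members were not analysed here.

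Differences, classes and 28 gene lists were described without a test, with Python 3.11.15 and pandas 2.3.3, and the classification was tested on simulated data. A gene counted at 2-fold or more if the brighter array reached its median of named genes. Genes named were the 15 highest and 15 lowest, the leading 10 of each raised and 6 of each lowered class, and list members. Members and lists were chosen with earlier results of these data known.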

Additional observations from a re-analysis of the deposited data

Results flagged for a closer look

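Probe sets that carry several gene symbols or no annotation entry were left out of the gene comparison. Among the 1814 with several symbols, 12 were 2-fold or more higher in N154S control cells than in hSTING dsDNA cells and 16 were lower, and 33 were raised over vector control in N154S control cells and 42 in hSTING dsDNA cells. Among the 16010 without an entry, 142 were higher in N154S control cells and 169 lower, and 104 were raised over vector control in N154S control cells and 203 in hSTING dsDNA cells. They are unnamed here, not without a gene.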

How the results depend on the processing

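Centring the arrays, quantile normalization, the mean of a gene's probe sets, no filter on dim signals and vector dsDNA as the acute baseline left every count within 1.5 times its reported value, and no 2-fold difference of a named gene changed sign. With signals in the upper quartile alone, 46 genes were higher, and the classes raised in N154S control cells only, lowered alike, lowered in hSTING dsDNA cells only and lowered in N154S control cells only held 9, 11, 26 and 7 genes. A 3-fold threshold gave 14 higher and 97 lower. With hSTING control as the acute baseline, 47 genes were raised alike and 5 lowered alike. A margin of 1.2-fold gave 48 raised alike, 10 lowered alike and 7 lowered in N154S control cells only. A stricter fold or signal threshold counts fewer genes by construction, whereas the margin moves genes between classes. With the 1.2-fold margin the class raised further in hSTING dsDNA cells grew from 99 to 132 genes. The acute-only class fell from 124 to 85. On the mean of probe sets the differences of Ch25h, Csf2, Nynrin, Slc7a11, Sp110 and Trav9d-3 moved, to -1.275, -1.56, 0.95, -1.70, -1.45 and 0.16. No paired analysis was possible because each group has 1 array. Dim signals give only bounds, and no setting supplies a replicate.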

Other observations

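Several lists had few or no members 2-fold apart, beside all genes, of which 0.55% were higher in N154S control cells than in hSTING dsDNA cells and 1.25% lower. Of 34 cell cycle genes, 23 chaperone genes and 14 p53 targets, 0 were 2-fold apart in either direction, with median differences of -0.055, -0.24 and -0.015. Lists this small can hold 0 at those shares, so the counts do not set them apart from all genes. Sterol synthesis genes had a median difference of 0.41, with Sqle, the squalene epoxidase, at 7.71 in N154S control cells, 6.83 in hSTING dsDNA cells and 8.15 in vector control cells. The interferon-induced member of that list, Ch25h, which makes an antiviral oxysterol, ran the other way at 9.46 in N154S control cells, 11.38 in hSTING dsDNA cells and 8.59 in vector control cells. The collagenase Mmp13 was raised alike, at 11.06 in N154S control cells, 11.04 in hSTING dsDNA cells and 9.44 in vector control cells. Cell death genes were lower in N154S control cells for 3 of 17 members, the inflammatory caspase Casp4 at 7.88 against 9.10 in hSTING dsDNA cells, the BH3-only protein Bcl2l11 at 5.54 against 6.95 in hSTING dsDNA cells, and the DNA sensor Aim2, dim in N154S control cells at 3.36 against 4.58 in hSTING dsDNA cells. With the median standing for its dim signal, Aim2 was at least 1.08-fold lower, a bound short of 2-fold. Of 16 immune surface ligands, Cd40 and Cd80 were acute only, beside 0.559% of all genes. They read 6.18 and 6.85 in N154S control cells and 8.17 and 8.11 in hSTING dsDNA cells.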
